A study of Macaca mulatta with 60 samples.

Results

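A set of 129 of the 26149 transcripts on a rhesus monkey expression array stood higher in late than in early gestation in several striated muscle tissues at once. They were chosen by their log2 levels in control fetuses and in 4 tissues, the right ventricle (RV), left atrium (LA), right atrium (RA) and biceps femoris (BFM, a hindlimb skeletal muscle). For each transcript and tissue, the mean log2 level of the 3 early gestation (EG) controls was subtracted from that of the 3 late gestation (LG) controls. A transcript was taken when this log2 fold change (LFC) was at least 1, which is a doubling, in at least 3 of the 4 tissues and was -1 or less in none. Of 132 transcripts that met this rule, 2 described small RNAs and Pdk4, a kinase that restrains pyruvate oxidation, were left out, because the rule dropped small RNAs that the study describes and the genes of its 2 short lists of leading genes. The mirror rule, with falls in place of rises, was met by 292 transcripts. The left ventricle (LV) and every array of a fetus exposed to bisphenol A (BPA) were not used in the choice, so the questions put here are whether the rise was also present on those arrays and whether BPA altered it in LV.

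The 60 arrays covered these 5 tissues of 12 fetuses, all female, with 3 fetuses in each of 4 groups. EG control and EG BPA fetuses were those whose mothers received vehicle or BPA from day 50 to day 100 of gestation, and LG control and LG BPA fetuses those whose mothers received it from day 100 to term. BPA, a plastics monomer with oestrogen-like activity, was given once daily in fruit at 400 µg/kg body weight, and ethanol was the vehicle of all mothers. EG tissues were taken after caesarian section and LG tissues at necropsy after vaginal delivery, so gestational age and mode of delivery cannot be told apart in any value below, and in BPA exposed fetuses the window of exposure changes with them as well. Each tissue was normalized by itself. The cDNA of the atria was amplified by PCR and that of the ventricles was used directly, while the preparation of BFM is not given in the sources used here. Levels are therefore compared within a tissue. In bulk tissue, fewer cells of a type and less RNA per cell cannot be told apart.

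Toward term, heart and skeletal muscle leave a phase of cell division, exchange fetal for adult isoforms of contractile proteins and shift from glucose and lactate toward fatty acids as fuel. Glucocorticoid and thyroid hormone levels rise in the fetus before birth and drive much of the maturation of its organs. Birth itself, with labour and the first breaths, adds a stress response to these slower changes.

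Most of the 129 transcripts are known here only by an identifier. The study describes 5 of them, 4 as named proteins (complement factor D, NR4A1, beta-defensin 1 and the interferon-inducible IFI27L1) and 1 as a protein coding transcript with no name. These 5 owe their descriptions to having been listed for a BPA effect on these samples, so their differences between BPA and control fetuses are not independent evidence of one. The levels that led to their listing also enter their LG minus EG differences. The other 124 have no description in the sources used here, and no sequence is shown because none of the transcripts could be matched to one. In each tissue the typical member lay somewhat above the middle of the array, at a median percentile of mean level between 58.6 and 62.0. Between 30 and 42 of the 129 were in the top 25% of all transcripts, and between 3 and 7 in the lowest 25%.

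The control rise was of unequal breadth. It was at least 1 in all 4 tissues for 41 transcripts, in LA, RA and BFM but not RV for 38, in RV, LA and RA but not BFM for 23, in RV, RA and BFM but not LA for 15, and in RV, LA and BFM but not RA for 12. Because the choice used these values, they are given as a description. The third highest LFC, on which entry depended, ran down to 1.01 among the members and began at 1.00 among transcripts just outside, where the nearest 5 lay between 0.99 and 1.00.

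Taken as a body, the 129 transcripts stood lower on EG than on LG arrays that the choice did not use. For each array, the deviation of each transcript from its mean over the 12 arrays of the tissue was taken, and the median over the 129 was formed. In LV controls, which were not used in the choice, this median lay between -1.06 and -0.70 on the 3 EG arrays and between 0.62 and 0.83 on the 3 LG arrays. In LV of BPA exposed fetuses it lay between -0.69 and -0.54 on EG arrays and between 0.64 and 0.75 on LG arrays. The groups thus did not overlap, with a gap of 1.31 in controls and 1.17 in BPA exposed fetuses on the log2 scale. The gap in BPA exposed fetuses was 0.93 for RV, 1.07 for LA, 1.02 for RA and 1.36 for BFM. On the 18 EG and 18 LG arrays not used in the choice, between 6.98% and 17.8% of the 129 transcripts were above their tissue mean in EG and between 62.8% and 92.2% in LG, where the mean itself includes the control arrays. The other 24 arrays are those of the RV, LA, RA and BFM controls, whose order the choice fixed. Over all transcripts, the median deviation lay between -0.06 and 0.11, which quantile normalization within each tissue holds close to 0. The spread within groups was wider for the 129 than for transcripts at large: the median SD over 3 fetuses ran from 0.24 to 0.56 in EG groups and from 0.42 to 0.87 in LG groups, against 0.16 to 0.46 and 0.26 to 0.53 over all transcripts.

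**Figure D1:**
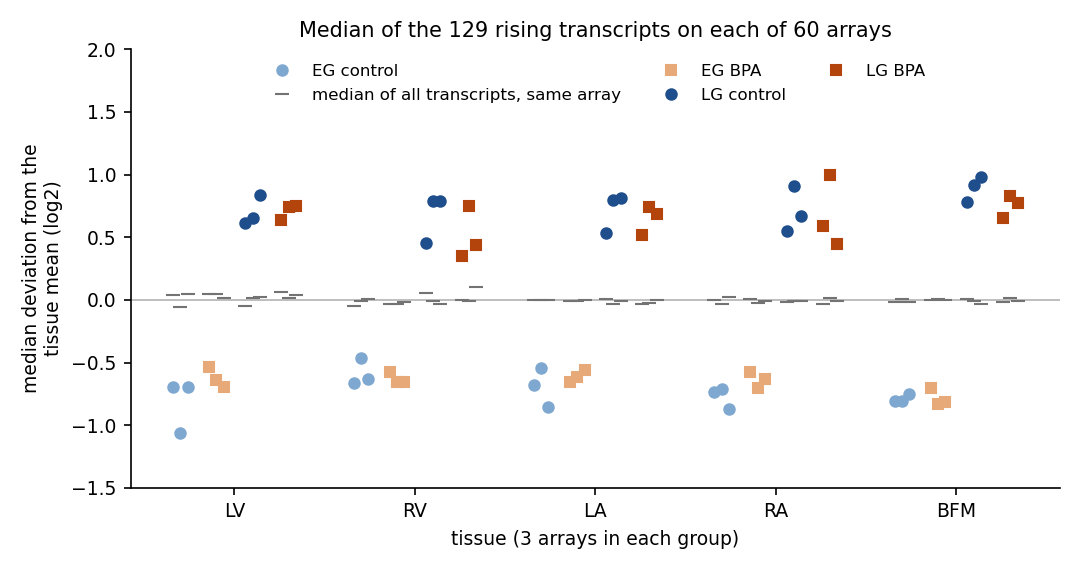
Each point is 1 array, and its height is the median deviation (log2) of the 129 transcripts from their mean over the 12 arrays of that tissue. Grey dashes give the same median over all transcripts. EG arrays (light) lie below 0 and LG arrays (dark) above 0 in every tissue, for controls (circles) and BPA exposed fetuses (squares). The control points of RV, LA, RA and BFM were used to choose the transcripts.

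In LV controls, the rise was present for most of the 129. Their median LFC between LG and EG was 1.60, with quartiles of 0.98 and 2.40, against a median of -0.01 over all transcripts. The LFC was at least 1 for 96 of them (74.4%), where 7.95% of all transcripts reached 1, and it was below 0 for 5. In the linear model fitted over all transcripts with limma, a transcript was called higher when its LFC was at least 1 at an unadjusted p of 0.01 or less, as the study defined a difference. By that rule 54 of the 129 (41.9%) were higher in LG and none was lower (none at an unadjusted p under 0.05 either), while 1.48% of all transcripts were called higher and 1.36% lower. The 3 LG arrays stood above the 3 EG arrays without overlap for 78 of the 129, where 8.47% of all transcripts did so. After Benjamini-Hochberg adjustment over all transcripts by limma, none of the 129 and no other transcript reached an adjusted p of 0.05 or less, while 80 of the 129 and 2952 of all transcripts had an unadjusted p under 0.05. The LV arrays came from the same 6 control fetuses that supplied the other tissues, so they extend the rise to another chamber and not to other animals.

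The BPA exposed fetuses were other animals. In them the 129 transcripts were again mostly higher in LG than in EG. In the ventricles 40 were called higher in LV (31.0%, against 1.57% of all transcripts) and 46 in RV (35.7%, against 1.42%). The atria gave 64 in LA (49.6%, against 1.20%) and 59 in RA (45.7%, against 1.20%), and BFM gave 81 (62.8%, against 3.78%). At an adjusted p of 0.05 or less by limma, the numbers for LV, RV, LA, RA and BFM were 9, 19, 32, 36 and 81, against 0.0688%, 0.245%, 0.264%, 0.363% and 3.71% of all transcripts. None of the 129 was called lower in LV or RV by limma, where 1.80% and 2.10% of all transcripts were. At an unadjusted p under 0.05, the 129 held none lower in LV and 2 in RV. In each of LA, RA and BFM, where 1.33%, 1.17% and 3.99% of all transcripts were called lower, IFI27L1 was the 1 of the 129 called lower. Medians of the LFC over the 129 were 1.46 for LV, 1.16 for RV, 1.25 for LA, 1.25 for RA and 1.58 for BFM of BPA exposed fetuses, where the median over all transcripts lay between -0.01 and 0.09.

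The 5 tissues of a fetus are not separate animals. When they were averaged so that each fetus gave 1 value, 82 of the 129 (63.6%) were called higher in LG than in EG BPA exposed fetuses, against 1.30% of all transcripts, and none was called lower by limma (1 at an unadjusted p under 0.05), against 1.54%. Of these 82, 78 also had an adjusted p of 0.05 or less by limma, against 1.17% of all transcripts. The median LFC of these averages was 1.40, and it was below 0 for 2 transcripts. Counted by tissue, an LFC of at least 1 in 3 or more of the 5 tissues was seen for 86 of the 129 (66.7%) and for 1.45% of all transcripts. It was seen in all 5 tissues for 35 of the 129, out of 61 (0.233%) on the whole array. Over the 6 comparisons that the choice did not use (LV controls, and BPA exposed fetuses in 5 tissues), 32 transcripts had an LFC of at least 1 in all 6, 27 in 5, 21 in 4, 12 in 3, 16 in 2, 18 in 1 and 3 in none. Over all transcripts, an LFC of at least 1 was found for 7.95% in LV controls and, in BPA exposed fetuses, for 9.90% (LV), 4.68% (RV), 2.34% (LA), 2.29% (RA) and 4.38% (BFM). Complement factor D and NR4A1 were among the 32.

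**Figure D2:**
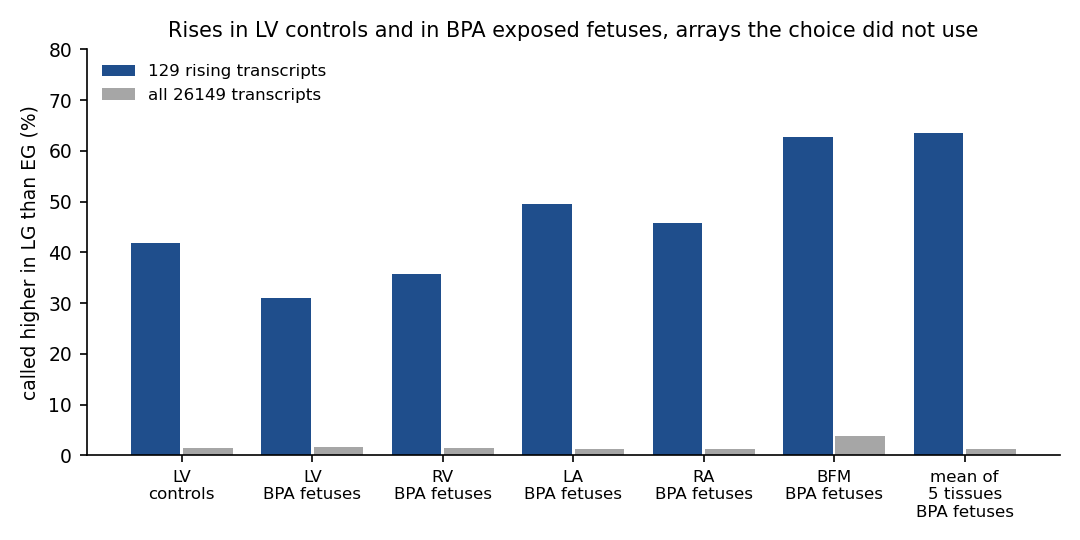
Bars give the percentage of transcripts called higher in LG than in EG (LFC of at least 1 at an unadjusted p of 0.01 or less by limma), for the 129 transcripts (blue) and for all 26149 (grey). The 7 comparisons were not used in the choice. The blue bars run from 31.0% in LV to 63.6% for the mean of 5 tissues in BPA exposed fetuses, and the highest grey bar is 3.78%.

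Of the 4 groups of transcripts in which 1 tissue had stayed below an LFC of 1 in controls, 3 had their smallest median in that same tissue in BPA exposed fetuses. The 23 transcripts of RV, LA and RA but not BFM had a median LFC of 0.32 in BFM of BPA exposed fetuses, where 1 of 23 reached 1. In the same fetuses 15 of these 23 reached 1 in each of RV, LA and RA, with medians of 1.24, 1.56 and 1.72, and 21 of 23 did so in LV controls, with a median of 2.15. Of the 23, 6 were called higher in each of LV and RV, 13 in each of LA and RA and 1 in BFM of BPA exposed fetuses, against 1.57% (LV), 1.42% (RV), 1.20% (LA and RA) and 3.78% (BFM) of all transcripts. The 1 of 23 in BFM is thus near the share of all transcripts, both for calls and for an LFC of at least 1 (4.38%), and IFI27L1, which is among them, was below 0 in all 5 tissues. The difference between heart and BFM was not tested. A like pattern was seen for the 38 transcripts of LA, RA and BFM. In RV of BPA exposed fetuses their median was 0.59, with 8 of 38 at 1 or more, and in BFM it was 1.84, with 33 of 38. Their rise was also small in the other ventricle, with a median of 0.84 in LV controls and 0.75 in LV of BPA exposed fetuses. The 12 transcripts of RV, LA and BFM had a median of 0.42 in RA of BPA exposed fetuses, but theirs was also only 0.57 in LA, where 4 of 12 reached 1, and 0.97 in RV, against 1.37 in BFM. The exception was the 15 transcripts of RV, RA and BFM, whose median was 1.09 in LA and 1.04 in RA. Ventricular and atrial cDNA were prepared differently, and the part of that in the gap between ventricles and atria was not tested. The 41 transcripts of all 4 tissues had medians from 1.45 to 1.91 over the 5 tissues of BPA exposed fetuses and 2.12 in LV controls.

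**Figure D3:**
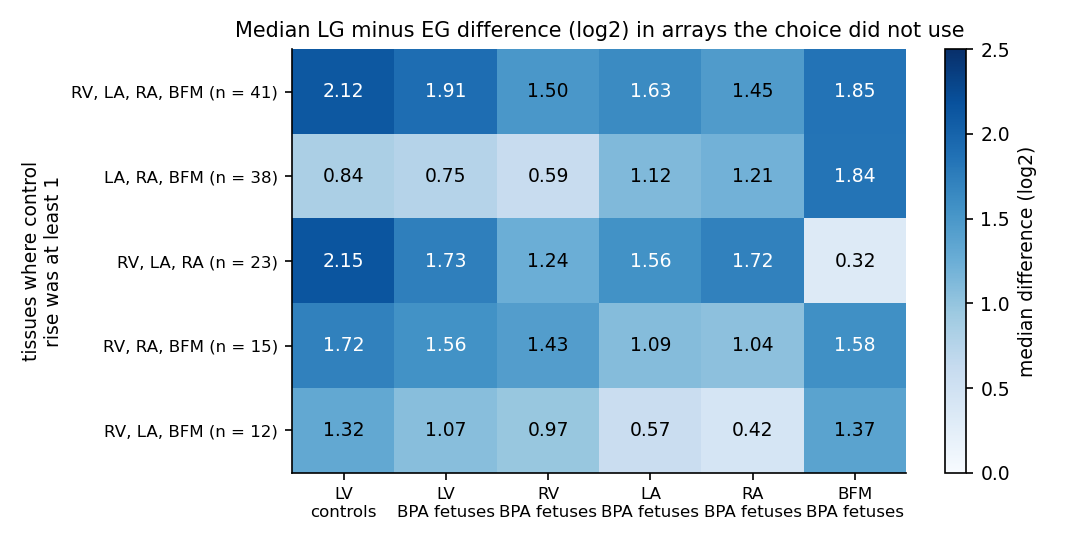
Each row is a group of transcripts by the tissues in which the control LFC was at least 1, with the number of transcripts. Each column is a comparison that the choice did not use, and the number in a cell is the median LFC between LG and EG (log2). The lowest value, 0.32, is that of BFM for the 23 transcripts whose control LFC was at least 1 in RV, LA and RA and below 1 in BFM.

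Complement factor D, the serine protease that starts amplification in the alternative complement pathway and a secreted product of fat cells, had a large rise in every tissue. In LV the EG controls read 3.45, 4.61 and 3.97 and the LG controls 10.27, 6.22 and 7.97 on the log2 scale. In LV of BPA exposed fetuses, EG levels were 3.85, 4.58 and 4.52 and LG levels 7.95, 7.78 and 7.60. Groups did not overlap in either case, and the LG controls were the more scattered. The LFC in LV was 4.15 ± 0.80 (SE) in controls, with an unadjusted p of 0.000404 and an adjusted p of 0.143 by limma, and 3.46 ± 0.80 in BPA exposed fetuses, with p values of 0.00148 and 0.141. Without the highest control, fetus 7, the control LFC was 3.09. The transcript rose in the other tissues of BPA exposed fetuses too, by 3.67 for RV, 3.02 for LA, 2.82 for RA and 2.71 for BFM, and LG and EG fetuses did not overlap in any of them. On the mean of 5 tissues its LFC was 3.14 ± 0.31, with an adjusted p of 0.000131 by limma.

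NR4A1, an orphan nuclear receptor whose gene is switched on within minutes by growth factors, stretch and stress hormones, behaved more unevenly. EG levels in LV were 6.91, 5.76 and 7.30 in controls and 7.38, 6.21 and 6.75 in BPA exposed fetuses. LG levels were 10.59, 7.71 and 7.48 in controls and 11.34, 7.73 and 9.23 in BPA exposed fetuses. LG lay above EG without overlap in both, but 1 LG control and 1 LG BPA fetus were far above the other 2 of their group. The LFC in LV, 1.94 ± 0.99 in controls and 2.66 ± 0.99 in BPA exposed fetuses, did not pass, at unadjusted p values of 0.0795 and 0.0231 by limma. In BPA exposed fetuses it was called higher in LA (LFC 3.20 ± 0.75), RA (3.94 ± 0.56) and BFM (3.28 ± 0.50), and in RV (2.39 ± 1.07) it was not, where LG BPA fetus 11 read 7.00 beside 10.74 and 10.42. On the mean of 5 tissues the LFC was 3.09 ± 0.63 with an adjusted p of 0.0124 by limma. Single fetuses decided much of its LFC in LV, which was 3.51, and called, without LG BPA fetus 11, and 1.70 without LG BPA fetus 10. In LV controls it was 0.94 without LG control fetus 7.

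Beta-defensin 1, an antimicrobial peptide of epithelia, was a transcript of the heart chambers in this choice. Its level in LV was 6.13, 5.45 and 7.19 in EG controls and 8.81, 7.26 and 8.11 in LG controls, which did not overlap. In LV of BPA exposed fetuses, EG levels of 7.00, 8.64 and 7.41 and LG levels of 10.82, 7.98 and 7.05 did overlap. The LFC was 1.80 ± 0.90 in LV controls and 0.94 ± 0.90 in LV of BPA exposed fetuses, and the latter ran from -0.16 without LG BPA fetus 10 to 1.72 without LG BPA fetus 12. Of BPA exposed fetuses, RV gave 1.65, LA 0.93, RA 0.26 and BFM -1.30, and no comparison that the choice did not use passed. Single fetuses moved these values too, to 0.95 in RV without fetus 10, 0.44 in LA without fetus 5 and -0.57 in BFM without fetus 4. Without EG control fetus 3, beta-defensin 1 would not have been chosen. Within RA, levels were 10.57 to 10.75 in EG BPA fetuses and 10.78 to 11.03 in LG BPA fetuses, without overlap.

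IFI27L1, a small protein of an interferon-inducible family, rose in controls and fell in BPA exposed fetuses. In LV its EG controls were at 5.53, 4.84 and 4.03 and its LG controls at 8.49, 5.66 and 6.02. After BPA exposure the order was turned, with 6.96, 6.50 and 8.29 in EG and 6.43, 5.47 and 6.28 in LG. The groups did not overlap in either direction, though the nearest levels after BPA exposure were 6.50 in EG and 6.43 in LG. The study lists IFI27L1 for higher levels in EG BPA fetuses than in EG controls in LV, LA and RA. High EG BPA levels thus had a part in its being described, and its falls toward LG are not independent evidence. The LFC of 1.93 ± 0.75 in LV controls and of -1.19 ± 0.75 in LV of BPA exposed fetuses each missed the call, at unadjusted p values of 0.0282 and 0.144 by limma. Without EG BPA fetus 6 the latter was -0.67. In BPA exposed fetuses it was called lower in LA (LFC -1.92 ± 0.54), RA (-1.94 ± 0.56) and BFM (-1.52 ± 0.37, adjusted p of 0.0154 by limma), and its LFC was -1.17 ± 0.74 in RV. The calls in LA and RA were lost without some single fetuses, where the weakest LFC was -1.70 in LA and -1.73 in RA. The control rise leaned on LG control fetus 7, the highest of the LG controls in all 5 tissues. Without that fetus the LFC in LV controls was 1.04, those in RV, LA and RA were 0.75, 0.56 and 0.43, and IFI27L1 would not have been chosen, nor would it without EG control fetus 3 or with medians in place of means.

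The unnamed protein coding transcript described by the study (ENSMMUT00000046184, singled out after its values were seen) was the only other one of the 129 with an LFC below 0 in all 5 tissues of BPA exposed fetuses. Its values were -0.58 for LV, -2.09 for RV, -1.25 for LA, -1.41 for RA and -0.47 for BFM, none of which was called. These values leaned on single fetuses, with 0.020 in BFM and -1.36 in RV without LG BPA fetus 12, -0.29 to -0.96 in LV and -0.77 to -2.60 in RA. In LV controls its LFC was 1.04 ± 0.54, from 10.18, 8.79 and 8.96 in EG and 9.34, 11.04 and 10.67 in LG, and the groups overlapped. Of the 129, 103 had no tissue with an LFC below 0 in BPA exposed fetuses, 16 had 1, 7 had 2 and 1 had 3.

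**Figure D4:**
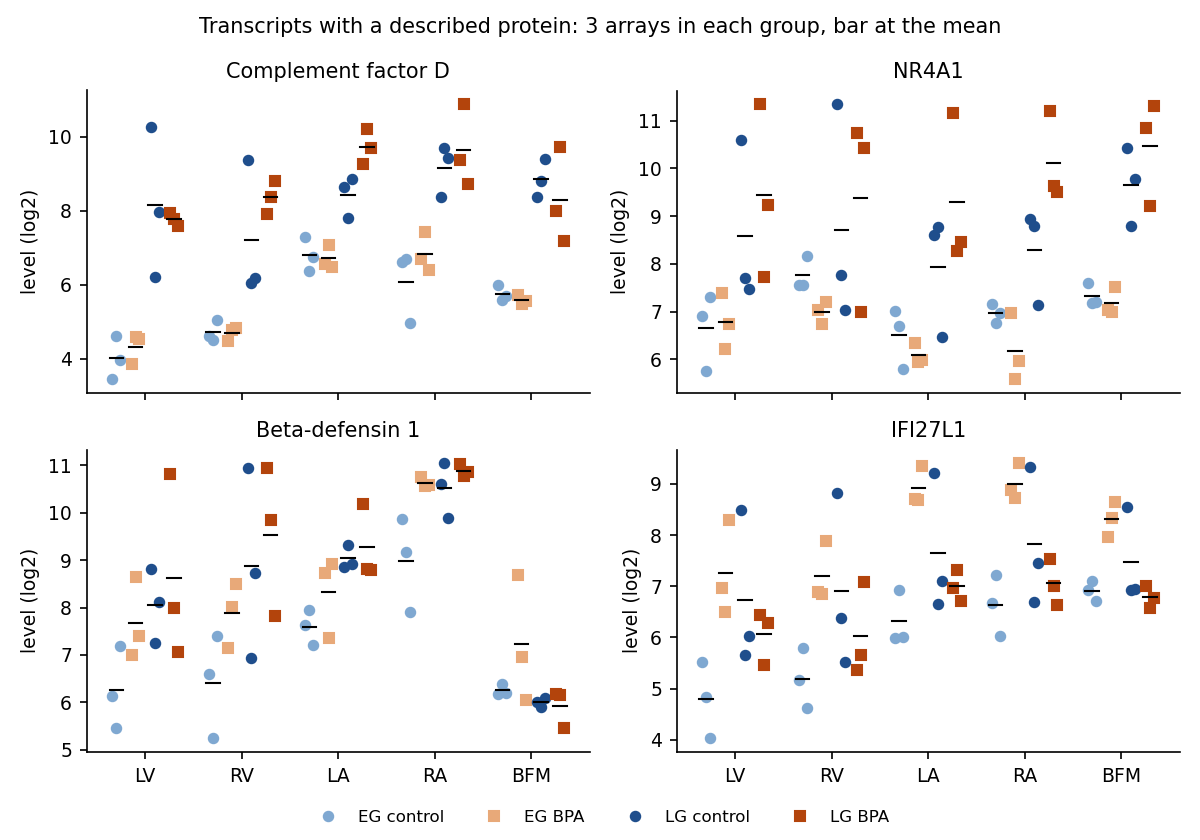
Levels (log2) of the 4 transcripts with a named protein, in 5 tissues. Each point is 1 fetus, the bar is the mean of 3, light symbols are EG and dark symbols LG, circles are controls and squares BPA exposed fetuses. Complement factor D is higher in LG in every tissue and treatment. IFI27L1 is higher in EG BPA fetuses (6.50 to 8.29 in LV) than in EG controls (4.03 to 5.53).

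Among the transcripts with no name, the largest median LFC over the 6 comparisons belonged to ENSMMUT00000009890 and ENSMMUT00000000337. The second was the steadier in LV. It read 6.10, 5.45 and 6.15 in EG controls and 9.60, 9.66 and 9.13 in LG controls, and 6.62, 6.93 and 5.49 in EG and 9.62, 9.22 and 9.82 in LG BPA fetuses. Its LFC of 3.57 ± 0.39 in LV controls had the lowest adjusted p of the 129 there, 0.0803 by limma, and that of 3.21 ± 0.39 in BPA exposed fetuses had an adjusted p of 0.0215. For ENSMMUT00000009890, LV levels were 8.31, 7.61 and 7.75 in EG and 10.91, 10.09 and 10.34 in LG controls. Those of BPA exposed fetuses were 8.61, 7.50 and 8.07 in EG and 11.74, 8.82 and 11.26 in LG, and fetus 11 was the lowest of its group. Its LFC was 2.56 ± 0.66 and 2.54 ± 0.66 in these comparisons, and 3.81 ± 0.17 in BFM of BPA exposed fetuses, with an adjusted p of 2.61e-07 by limma. Both transcripts were called higher in all 6 comparisons. In LV the calls of ENSMMUT00000009890 were lost without any 1 of EG control fetuses 2 and 3, LG control fetus 7, EG BPA fetus 5 and LG BPA fetuses 10 and 12, at LFC from 1.98 to 2.49.

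In LV, whose arrays had no part in the choice though its control fetuses supplied the other tissues, a BPA effect was called for 1 of the 129. In EG, the median difference between BPA and control fetuses was 0.16 on the log2 scale, and 1 of the 129 was called higher and none lower, against 0.214% and 0.520% of all transcripts. That transcript was IFI27L1, at an LFC of 2.45 ± 0.75 with an unadjusted p of 0.00847 and an adjusted p of 0.998 by limma, and the study lists it for this very comparison. The call was lost without EG BPA fetus 4 or 6 or EG control fetus 2. Of these, only leaving out fetus 6, the highest EG BPA fetus at 8.29, made the LFC smaller. In LG, the median difference was -0.07, and none of the 129 was called by limma, against 0.436% higher and 0.394% lower over all transcripts. At an unadjusted p under 0.05 there were 5 of the 129 in EG and 2 in LG, against 4.10% and 4.34% of all transcripts. The difference between the LG and EG effects of BPA, which is also the difference between the rise in BPA exposed fetuses and that in controls, had a median of -0.17 and ran from -3.12 to 2.27. By limma none of the 129 was called for it, against 0.673% higher and 0.382% lower over all transcripts, and 7 had an unadjusted p under 0.05, against 5.26%. Of these 7, 6 were lower. The values of the 129 lay more often on the lower side, with 24 (18.6%) at -1 or less and 6 (4.65%) at 1 or more, against 9.31% and 13.8% of all transcripts. This lean was not tested. The LV controls came from the control fetuses that the choice used, so an effect of BPA and an effect of the choice cannot be told apart in it. The counts depended on the fit: array weights gave 3 of the 129 for the EG effect, 1 for the LG effect and 3 for their difference, the 6 arrays alone gave 3 in EG and 2 in LG, and the difference had 2 with a trended, robust prior and 1 after further quantile normalization. IFI27L1 had the lowest value, -3.12 ± 1.06, with an unadjusted p of 0.0149 and an adjusted p of 0.885. The median SE of this difference over the 129 was 0.79, so that a typical transcript needed a difference of 2.51 on the log2 scale to be called with 3 fetuses in each group.

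Which transcripts were called in LV was in part shared between controls and BPA exposed fetuses. These have no sample in common, but the model gave each transcript the same estimate of spread in both comparisons. The lists of calls are therefore not independent. Of the 129, 31 were called higher in both, which is 57.4% of the 54 called in controls and 77.5% of the 40 called in BPA exposed fetuses. Over all transcripts 103 (0.394%) were called higher in both, 26.6% of 387 and 25.1% of 410. In RV, LA, RA and BFM, the controls decided the choice, so no test of BPA is given there, and the control medians of 1.26, 1.43, 1.44 and 1.61 stand beside those of 1.16, 1.25, 1.25 and 1.58 in BPA exposed fetuses only as a description.

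**Figure D5:**
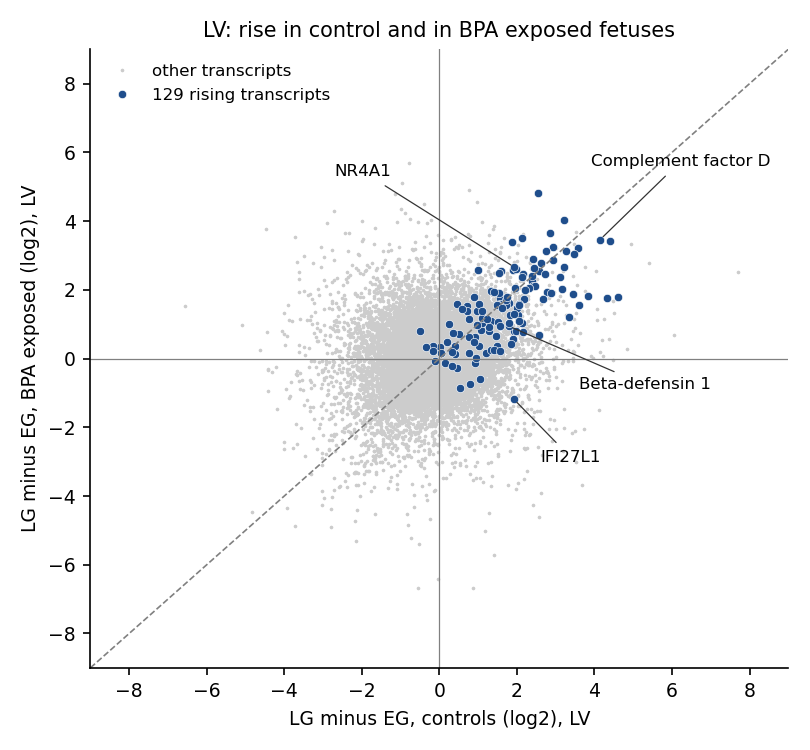
Each point is a transcript, with its LFC between LG and EG in LV of controls on the horizontal axis and in LV of BPA exposed fetuses on the vertical axis (both log2). Blue points are the 129, grey points all others, and the dashed line marks equal LFC. Most blue points lie above 0 on both axes, and IFI27L1, at 1.93 and -1.19, lies below the horizontal axis.

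Within BPA exposed fetuses, the rise in LV could be set against the mean rise of RV, LA, RA and BFM with arrays the choice did not use. The median of this difference over the 129 was -0.01. It was called for 10 of the 129 by limma, 7 with a larger rise in LV and 3 with a smaller rise, against 2.88% and 2.55% of all transcripts. The number fell to 4 without EG BPA fetus 5, 3 without EG BPA fetus 6, 6 without LG BPA fetus 10 and 5 without LG BPA fetus 12. Only ENSMMUT00000006877, singled out after its values were seen, reached an adjusted p of 0.05 or less among the 129, as did 2.29% of all transcripts. It read 6.09, 2.91 and 5.29 in LV of EG BPA fetuses and 9.42, 9.17 and 10.14 in LV of LG BPA fetuses, with EG fetus 5 far below the others. In BPA exposed fetuses its LFC was 4.82 for LV, against 2.18 for RV, 2.80 for LA, 1.77 for RA and 1.46 for BFM, and the difference between LV and the mean of the others was 2.77 ± 0.60, with an adjusted p of 0.00491 by limma. Without fetus 5 that difference was 1.84.

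Other described transcripts show what else changed between EG and LG on the same arrays. All were taken from the study's tables, where they stand for a BPA effect on these samples. The 4 cell division transcripts were the mitotic kinase TTK, the phosphatase CDC25C (listed as M-phase inducer phosphatase 3), centromere-associated protein E and citron kinase. All 4 were called lower in BPA exposed fetuses on the mean of 5 tissues, against 1.54% of all transcripts. Centromere-associated protein E fell by 1.75 in LV controls and by 3.85 in LV of BPA exposed fetuses. In LV controls, all 4 had an LFC below 0, from -1.77 to -0.80, and 2 of them were called lower, against 1.36% of all transcripts. Of 9 matrix and growth factor transcripts, only HTRA3, a secreted serine protease, was called higher in LV controls, at an LFC of 1.33. It was also called higher in LV (1.62), RV (1.61), LA (1.73) and RA (1.99) of BPA exposed fetuses. None of these 13 was among the 129. Of 9 innate defence transcripts, 3 were among the 129 (complement factor D, beta-defensin 1 and IFI27L1), and in LV controls 2 of the 9 were called higher and 2 lower, against 1.48% and 1.36% of all transcripts. Beside complement factor D, the inflammatory cytokine tumor necrosis factor rose, at an LFC of 2.63, while an MHC class I antigen fell by 2.64 and IFIT1, which is interferon-induced, by 2.01. In LV of BPA exposed fetuses these 3 were not called, at LFC of 0.65, 0.94 and 0.46, and complement factor D and the lectin CLEC4F were called higher, against 1.57% of all transcripts. The study lists tumor necrosis factor as higher, and CLEC4F as lower, in LV of EG BPA fetuses than of EG controls. These LV comparisons thus reuse levels by which the transcripts were listed, and complement factor D was chosen for a rise in the same control fetuses.

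Some leukocyte markers were called higher in LG in part of the comparisons of BPA exposed fetuses, and none was in LV controls. They were taken from the study's lists of BPA effects on these samples, so levels of BPA exposed fetuses had a part in that choice. Of 16 leukocyte transcripts, none of them among the 129, none was called higher by limma (2 at an unadjusted p under 0.05) and 1 was called lower in LV controls. In BPA exposed fetuses 5 were called higher and 1 lower in LV, none in RV (3 at an unadjusted p under 0.05), 6 higher in LA, and 1 each higher in RA and BFM, where the shares of all transcripts called higher were those given above, 1.57% in LV and 1.20% in LA. Their mean level in LV was 4.86 to 5.25 in EG controls, 5.09 to 5.14 in LG controls, 4.28 to 4.66 in EG BPA fetuses and 5.22 to 5.65 in LG BPA fetuses. The median LFC of the leukocyte transcripts was 0.07 in LV controls and 1.26 in LV of BPA exposed fetuses, beside medians of 1.60 and 1.46 for the 129. Neither of 2 erythroid transcripts, the heme synthesis enzyme ALAS2 and the transcription factor KLF1, was called by limma in any of these comparisons, and 1 of them had an unadjusted p under 0.05, in RV. Myosin-11, a smooth muscle protein, had an LFC of 1.74 in LV controls and 2.49 in LV of BPA exposed fetuses, neither called, and was called higher in RV (1.68) and LA (3.13) of BPA exposed fetuses. The part of blood or vessel content in the rise of the 129 was not tested.

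The tissues were checked against 3 heart transcripts of the study's tables, and in LV Myosin-6 moved with the groups. Myosin-6, the fast myosin heavy chain that dominates in atria, lay at or above percentile 99.8 of the array on every LA and RA array. BMP10, a growth factor of the right atrium, lay at or above percentile 95.9 on every RA array and at or below percentile 69.0 on all others. On LV arrays Myosin-6 was at 6.73, 6.44 and 6.48 in EG controls and at 14.16, 14.43 and 14.19 in LG controls. In BPA exposed fetuses it was at 5.69, 7.16 and 6.20 in EG and at 7.62, 13.45 and 5.56 in LG. It was thus high on 4 LV arrays, those of the 3 LG controls and of LG BPA fetus 11. Myosin-6 is the Myh6 that the study reports as lower in LV of LG BPA fetuses, by array and, with marginal significance, by quantitative PCR. The study describes ventricular Myh6 as normally induced shortly before birth, so in LV it is not a marker of atrial tissue alone. On RV arrays Myosin-6 was uneven within every group, at 5.51, 6.77 and 11.91 in EG controls, 6.47, 14.23 and 14.01 in LG controls, 12.77, 7.43 and 11.85 in EG BPA fetuses and 12.84, 13.68 and 7.63 in LG BPA fetuses. The potassium channel KCNA5, another atrial transcript, was also called higher in LV controls, at an LFC of 2.27, and BMP10 was not, at -2.40. The median deviation of the 129 on LV arrays of LG BPA fetuses was 0.64 for fetus 10, 0.74 for fetus 11 and 0.75 for fetus 12, beside 0.62 to 0.83 for the LG controls. The part of atrial content in the rise of the 129 was not tested.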

How the data were processed

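RNA of 5 tissues from 12 fetuses was hybridized by the authors to custom NimbleGen arrays built from Ensembl transcripts. The values are on the log2 scale and were deposited after the authors had run robust multi-array averaging within each tissue, with background correction, quantile normalization and median polish. Scanner intensities were not used here, so no level could be set against background. Precision depended on how many arrays each group had. Group means were fitted per tissue over all 26149 transcripts with limma 3.58.1 (statmod 1.5.0, R 4.3.3), with no filter on variation. The fitting code itself was checked on simulated data with known shifts. Counts and figures used Python 3.11.15, pandas 2.3.3, numpy 2.4.6 and matplotlib 3.10.9. A call required an LFC of at least 1 at an unadjusted p of 0.01 or less, as in the study's methods, with Benjamini-Hochberg values beside it. Exact permutation of 3 against 3 fetuses gives 20 splits and a smallest two-sided p of 0.1, so no such p is quoted.

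Members and lists were chosen with earlier results of these data known. Names came from the study's tables of BPA effects, through the number of each identifier. Named in the text were all members described there as a protein with a name, the 2 unnamed members with the largest median LFC over the 6 comparisons not used in the choice, and listed transcripts. ENSMMUT00000046184 and ENSMMUT00000006877 fall outside this rule and were named after their values were seen. Gene lists by symbol could not be applied. Same-numbered samples come from 1 fetus. Deviations from group means in LV correlated with those in another tissue at a median of 0.08 within a fetus and -0.04 between fetuses of a group. That samples of a group came from separate fetuses is given by the labels. Alternatives comprised filters, array weights, centring, further quantile normalization, thresholds, other member rules and leaving out each fetus.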

Additional observations from a re-analysis of the deposited data

Results flagged for a closer look

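Levels of IFI27L1 (ENSMMUT00000003381) in LV moved in opposite directions in the 2 treatments: every LG control was above every EG control, with an LFC of 1.93 (1.04 without LG control fetus 7), and every LG BPA fetus was below every EG BPA fetus, with an LFC of -1.19, or -0.67 without EG BPA fetus 6. The difference between these LFC was -3.12 ± 1.06, at an unadjusted p of 0.0149 and an adjusted p of 0.885 by limma, which did not pass the call. IFI27L1 was chosen for its rise in other tissues of these control fetuses, and it is described for its high EG BPA levels. Neither direction is thus independent evidence.

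The LV rise of ENSMMUT00000006877 in BPA exposed fetuses exceeded the mean rise of the other 4 tissues by 2.77. The adjusted p was 0.00491 by limma, in a fit that took the tissues of a fetus as independent arrays. The excess was 1.84 without EG BPA fetus 5.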

How the results depend on the processing

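Of 208 alternative values of counts, 174 stayed within 1.5 times the reported count and 34 did not. For single described or named transcripts, 534 of 559 alternative values kept both direction and side of the threshold, 14 lost the call, 9 gained it, and 2 values that were not called changed direction: beta-defensin 1 in LV of BPA exposed fetuses (-0.16 without fetus 10, and up to 1.72 without fetus 12) and ENSMMUT00000046184 in BFM (0.020 without fetus 12, and down to -0.77 without fetus 10). Shares of the 129 called higher at an adjusted p of 0.05 or less by limma were 0% in LV controls and 6.98% in LV, 14.7% in RV, 24.8% in LA and 27.9% in RA of BPA exposed fetuses. Requiring all 4 tissues left 41 members, of which 68.3% were called in LV controls and 48.8% in LV and 56.1% in RV of BPA exposed fetuses. For BPA effects in LV, array weights gave 2.33% in EG, 0.775% in LG and 2.33% for their difference. The 6 arrays alone gave 2.33% in EG and 1.55% in LG, and EG counts were 0% with adjusted p, with all 4 tissues or with medians in the choice. The difference reached 0.775% with quantile normalization and 1.55% with a trended, robust prior. LV against other tissues gave 0.775% with adjusted p and 4.88% with all 4 tissues. Leaving out 1 fetus gave 28.7% to 41.9% in LV controls and, in BPA exposed fetuses, LV 21.7% to 30.2%, RV 24.8% to 40.3%, LA 42.6% to 49.6%, RA 34.9% to 47.3%, BFM 58.9% to 65.1% and the mean of tissues 56.6% to 64.3%. It gave 0% to 0.775% for EG BPA, 0% to 1.55% for LG BPA and for the difference, 2.33% to 7.75% for LV against other tissues, and 135 to 183 members, of which 93 to 113 were among the 129. With medians in the choice, 98 of the 129 stayed. With the fetus as replicate block, 65.1% of members were called on 60 arrays, and 9.30%, or 6.20% with differences within a fetus, for LV against other tissues. Beside these stand 63.6% from averages per fetus, and 7.75% for LV against other tissues from 60 arrays without the block. The causes of these shifts were not tested.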
